A study of Mus musculus with 4 samples.

Results

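The genes described here are 46 receptor chains for interleukins, interferons and colony-stimulating factors, chosen by name, with earlier results of these data known, out of 18749 genes named on a whole mouse genome microarray. They were read by 67 probes, and 16 of them had more than 1 probe. Naive CD4 T cells (CD44low, CD62Lhigh, CD25negative) came from the spleens of C57BL/6J mice that the labels describe as female, and all mice of the study were 8 to 12 weeks old per its methods. The cells were labelled Bach2 WT or Bach2 KO, the latter from Bach2 flox/flox mice carrying a CD4-Cre transgene, in which Cre under the Cd4 promoter deletes the floxed gene in T cells during their development. Both were activated for 2 days with anti-TCR-β mAb at 3 μg ml-1 and anti-CD28 mAb at 1 μg ml-1 and grown for 3 more days with IL-2 at 2.5 ng ml-1 per the labels (the study's methods give a higher concentration for their IL-2 conditions), with no neutralizing antibody against a cytokine named in the labels. Each culture was read as it was (unstimulated) or after 4 h on immobilized anti-TCR-β mAb with no added IL-2 (re-stimulated). The labels of the WT arrays do not mention the Cre transgene, and the study's text calls CD4-Cre mice its WT controls for work in vivo. There was 1 array for each of the 4 conditions, so no difference was checked against replicates or tested, and precision is limited by having 4 arrays.

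Cytokine receptors are assembled from a chain that binds the cytokine and a chain, often shared between cytokines, that completes the signalling complex. Chains of the class I and class II families carry JAK kinases, which phosphorylate STAT factors, whereas chains of the IL-1 and IL-17 receptor families recruit adaptors such as MyD88 and Act1 and lead to NF-κB. In helper T cells the set of chains on the surface is known to change with activation and with Th1, Th2 or Th17 differentiation, IL12RB2 being typical of Th1 cells and ST2 of Th2 cells.

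Signals are the background-corrected intensities of the scanner, given below without scaling, and log2 differences were taken after each array was scaled to its own 75th percentile of signal, which lay between 313 and 436. Bach2 itself had signals of 2932 (WT) and 2633 (KO) unstimulated and 3310 and 3080 re-stimulated, log2 differences of -0.15 and -0.28. The position of its probe relative to the deleted part is not given in the sources used here, so this reading checks no label, and the arrays are named by their labels. All 10 T cell markers on a fixed list (Cd3d, Cd3e, Cd4, Lck and others) were well above background on all 4 arrays, with a summed level of 432 to 489 times the 75th percentile. Of 10 mast cell and basophil markers, 7 were well above background on each array labelled KO against 2 and 1 on the WT arrays, and the summed level was 0.487 (WT) and 3.37 (KO) unstimulated and 1.05 and 5.42 re-stimulated, while Ms4a2, Mcpt4 and Tpsb2 were well above background on none. Of 4 Y-linked genes, 3 were well above background on each array labelled KO and 0 on each WT array, which differs from the label female, and the study's methods name both sexes for in vitro work. Sex, the culture and the genotype label thus cannot be told apart between the arrays.

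Of the 46 receptor chains, 28 were well above background on all 4 arrays, 11 on 1 to 3 arrays and 7 on none, each read from its brightest probe. Among the 11, Csf2rb, Il6ra and Il17rc each had another probe that passed this flag on all 4 arrays, and no probe of the 7 passed it on any. Over all genes these shares were 57.7% on all 4 arrays and 30.9% on none, against 60.9% and 15.2% of the receptor chains. The 7 chains well above background on none were Il5ra, Il9r, Il13ra2, Il17rb, Il22ra1, Il22ra2 and Csf3r, so the binding chains for IL-5, IL-9 and IL-25 were not detectable here. Fewer cells carrying a transcript and less of it per cell cannot be told apart in such RNA from whole cultures.

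In the unstimulated cells, 35 receptor chains had a value and 7 of them differed by at least 2-fold, the rule of size used throughout. Il1r2, Il1rl1, Il7r, Csf2rb, Csf2rb2 and Il12rb1 were higher on the array labelled KO and Il6ra was lower. Over all genes with a value 8.08% passed this rule, 5.26% higher and 2.82% lower. In the re-stimulated cells 35 chains again had a value and 10 passed the rule, against 9.02% of all genes. Il1r1, Il1rl1, Il7r, Csf2rb and Csf2rb2 were higher, against 5.17% of all genes, and Il18r1, Il6ra, Ifngr1, Ifngr2 and Ifnar2 were lower, against 3.85%. The median log2 difference over the chains with a value was 0.28 unstimulated, where it was -0.003 over all genes, and 0.12 re-stimulated, where it was 0.02 over all genes. In each state 6 of the 35 values were bounds (set to 0 for Csf1r), from chains that were well above background on 1 of the arrays compared, and apart from Csf1r that was the array on which the chain was brighter.

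**Figure D1:**
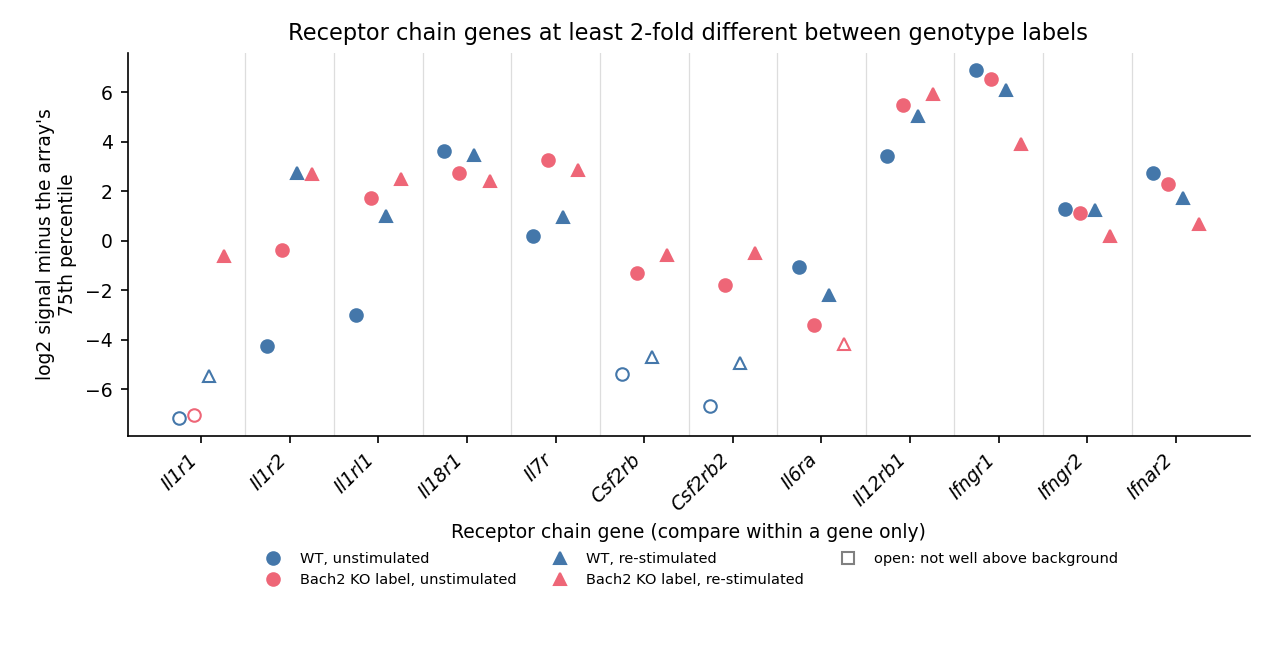
Log2 signal minus the 75th percentile of the array (y axis) for the 12 receptor chain genes at least 2-fold different between genotype labels in either state (x axis), with 1 point per array and no error bars since each condition had 1 array. Circles are unstimulated and triangles re-stimulated cells, blue is WT and red the Bach2 KO label, and open points were not well above background. Il1r2 has 3 separate levels, with both re-stimulated arrays together at the top, whereas Ifngr1 stands low on the re-stimulated array labelled KO.

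Of the 7 IL-1 family receptor chains 6 had a value in each state. In unstimulated KO cells 2 were higher, against 5.26% of all genes. In re-stimulated KO cells 2 were higher and 1 lower, against 5.17% and 3.85%. Il1rl1 (NM_001025602) encodes ST2, the IL-33 receptor of Th2 cells, innate lymphoid cells, mast cells and basophils. Its signals were 55.3 (WT) and 1438 (KO) unstimulated and 629 (WT) and 2006 (KO) re-stimulated. The array labelled KO was the higher in both states, 26.1-fold before and 2.83-fold after re-stimulation, log2 differences of 4.71 and 1.50. Within a genotype, re-stimulation went with a log2 change of 3.99 in WT and 0.78 in KO, so the WT cells came closer to the KO cells at 4 h. The unstimulated difference was 3.17 over the mean of its probes and 3.40 with normexp, an alternative background correction that adds an offset, and the change in WT was 2.76 with normexp.

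Il1r2 (NM_010555) encodes the decoy receptor, which binds IL-1 but has no signalling domain. Its signals were 22.9 (WT) and 341 (KO) unstimulated and 2122 (WT) and 2278 (KO) re-stimulated. The unstimulated cells differed 14.9-fold, a log2 difference of 3.90, and the re-stimulated cells hardly at all, by -0.07. Re-stimulation was accompanied by a log2 change of 7.01 in WT (129-fold) and 3.04 in KO (8.22-fold). The difference between those changes, -3.97, was the lowest among the 10810 genes detected well above background on all 4 arrays. The second probe of Il1r2 was well above background on 3 of the arrays and gave -0.06 between the re-stimulated arrays and 2.98 for re-stimulation in KO. With normexp the unstimulated difference was 2.09 and the change in WT 4.92.

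Il1r1 (NM_008362), the signalling receptor for IL-1, gave a further pattern. Its probe was well above background on 1 array, that of re-stimulated cells labelled KO, with a signal of 232. On the other arrays it read 3.05 (WT) and 3.35 (KO) unstimulated and 7.19 (WT) re-stimulated. It was thus at least 14.1-fold higher in KO than in WT after re-stimulation (log2 of at least 3.82) and at least 17.0-fold higher than in unstimulated KO cells (log2 of at least 4.09). With normexp these differences were 2.22 and 2.25. For such bounds the dimmer signal was set to the lowest one flagged well above background on its array, between 14.5 and 17.2.

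Il1rap (NM_134103), the accessory chain shared by the receptors for IL-1, IL-33 and IL-36, differed on re-stimulation and stayed within 2-fold between genotypes. Its signals were 55.4 (WT) and 45.4 (KO) unstimulated and 264 (WT) and 253 (KO) re-stimulated. The changes on re-stimulation were 2.73 in WT and 2.78 in KO on the log2 scale, and the genotype differences were -0.28 and -0.24. A further probe gave 2.55 and 2.28 for re-stimulation. The changes were 1.84 and 1.73 with normexp, and 1.21 and 1.44 over the mean of 4 probes, of which 2 were well above background on none of the arrays.

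The IL-18 receptor chains differed from each other. Il18r1 (NM_008365), the binding chain, had signals of 5444 (WT) and 2937 (KO) unstimulated and 3471 (WT) and 1903 (KO) re-stimulated. It was the lower on both arrays labelled KO, with log2 differences of -0.88 and -1.04, the second just past 2-fold. Il18rap (NM_010553), the signalling partner, had signals of 312, 367, 650 and 677 in the same order and log2 changes on re-stimulation of 1.54 in WT and 1.18 in KO. Its genotype differences were 0.24 and -0.11. Il1rl2, the IL-36 receptor, was well above background on the unstimulated KO array only, at 23.5.

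The genes Il1r2, Il1r1, Il1rl2, Il1rl1, Il18r1 and Il18rap are adjacent, in that order, on mouse chromosome 1 in the RefSeq annotation of GRCm38.p6. Neighbours on this stretch did not share 1 direction, since Il1r2 and Il1rl1 were higher and Il18r1 lower in unstimulated cells labelled KO. The 250 bases before the RefSeq start sites of 3 of them are shown because these genes had the largest difference in unstimulated cells (Il1rl1, both start sites), the largest change on re-stimulation (Il1r2) and a difference in the other direction (Il18r1). Il18r1 has 3 start sites in the table, of which the one whose window held matches is shown. Each is printed 5′ to 3′ on the strand of its gene, from RefSeq on GRCm38.p6, and capitals mark matches to TTCNNNGAA, a palindrome bound by STAT dimers. The window of Il1r2 is chr1:40085843-40086092 on the plus strand. The window of Il1rl1 (first start site) is chr1:40429320-40429569 on the plus strand. The window of Il1rl1 (second start site) is chr1:40439379-40439628 on the plus strand. The window of Il18r1 is chr1:40465756-40466005 on the plus strand.
Il1r2: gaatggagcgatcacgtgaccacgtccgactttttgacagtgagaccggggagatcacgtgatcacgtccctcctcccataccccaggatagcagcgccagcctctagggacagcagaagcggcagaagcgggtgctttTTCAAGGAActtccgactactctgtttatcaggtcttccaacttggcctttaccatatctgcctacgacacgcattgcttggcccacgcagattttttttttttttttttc
Il1rl1 (first start site): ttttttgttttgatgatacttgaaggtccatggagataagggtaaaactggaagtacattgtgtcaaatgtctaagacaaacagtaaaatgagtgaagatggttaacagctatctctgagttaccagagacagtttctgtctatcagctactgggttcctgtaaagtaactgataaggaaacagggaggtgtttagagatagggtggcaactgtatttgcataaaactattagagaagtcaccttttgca
Il1rl1 (second start site): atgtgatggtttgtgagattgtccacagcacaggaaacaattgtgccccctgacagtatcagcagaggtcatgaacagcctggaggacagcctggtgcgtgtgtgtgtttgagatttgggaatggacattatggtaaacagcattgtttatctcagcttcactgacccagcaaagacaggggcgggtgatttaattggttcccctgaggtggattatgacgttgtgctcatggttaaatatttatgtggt
Il18r1: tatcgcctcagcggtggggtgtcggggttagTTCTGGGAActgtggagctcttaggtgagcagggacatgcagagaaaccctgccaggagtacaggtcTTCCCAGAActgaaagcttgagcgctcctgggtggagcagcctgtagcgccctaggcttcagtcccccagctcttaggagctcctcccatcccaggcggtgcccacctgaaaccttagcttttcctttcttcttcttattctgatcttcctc
The motif TTCNNNGAA reads the same on both strands and was chosen after the values were seen. It was found once in the window of Il1r2, with its first base 111 bases before the start site, and in the window shown of Il18r1 at 219 and 152 bases before the start. The windows of Il1rl1 and the other 2 windows of Il18r1, not shown, held none. A second motif, TGANTCA, takes in both forms of the AP-1 element that Bach2 is known to bind, TGACTCA and TGAGTCA, as well as TGAATCA and TGATTCA, and was in none of the windows of these 3 genes on either strand. A match is a run of letters and was not tested as a binding site.

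**Figure D2:**
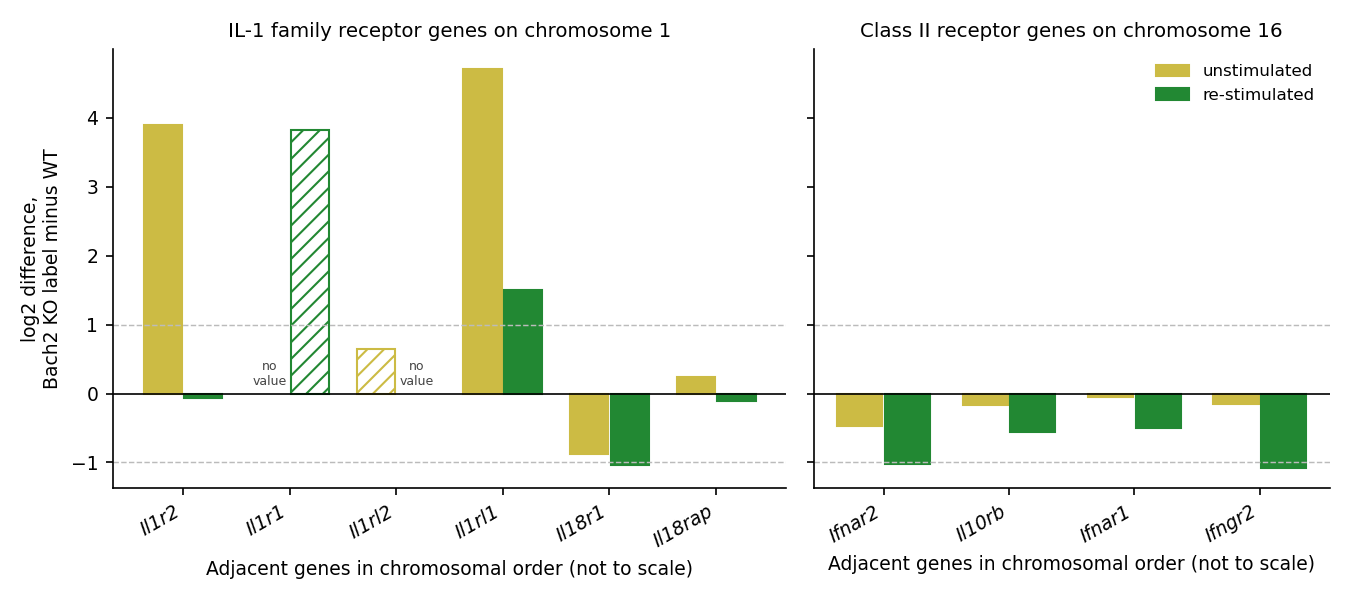
Log2 difference of the array labelled Bach2 KO minus WT (y axis) for adjacent receptor genes in chromosomal order (x axis), yellow in unstimulated and green in re-stimulated cells, each bar from 1 pair of arrays with no replicate. Hatched bars are bounds, "no value" means well above background on neither array, and dashed lines mark 2-fold. On chromosome 1 the bars reach 4.71 and -1.04, whereas on chromosome 16 all 8 lie between -1.08 and 0.

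The probes of Il1rl1 did not move alike. The probe described above is assigned to the transcript of the membrane-bound form, and 2 others are assigned to the transcript of the soluble form, which is known as a decoy for IL-33. The brighter of these 2 had signals of 3.06 (WT) and 49.3 (KO) unstimulated and 224 (WT) and 546 (KO) re-stimulated. It differed by 1.11 between the re-stimulated arrays and by 3.77 on re-stimulation in KO, where the probe of the membrane-bound form gave 0.78. The SD between the probes for re-stimulation in KO, 2.11 on the log2 scale, was the highest among the receptor chains. All 3 probes were higher in KO than in WT in the re-stimulated cells, the dimmest by 0.51.

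**Figure D3:**
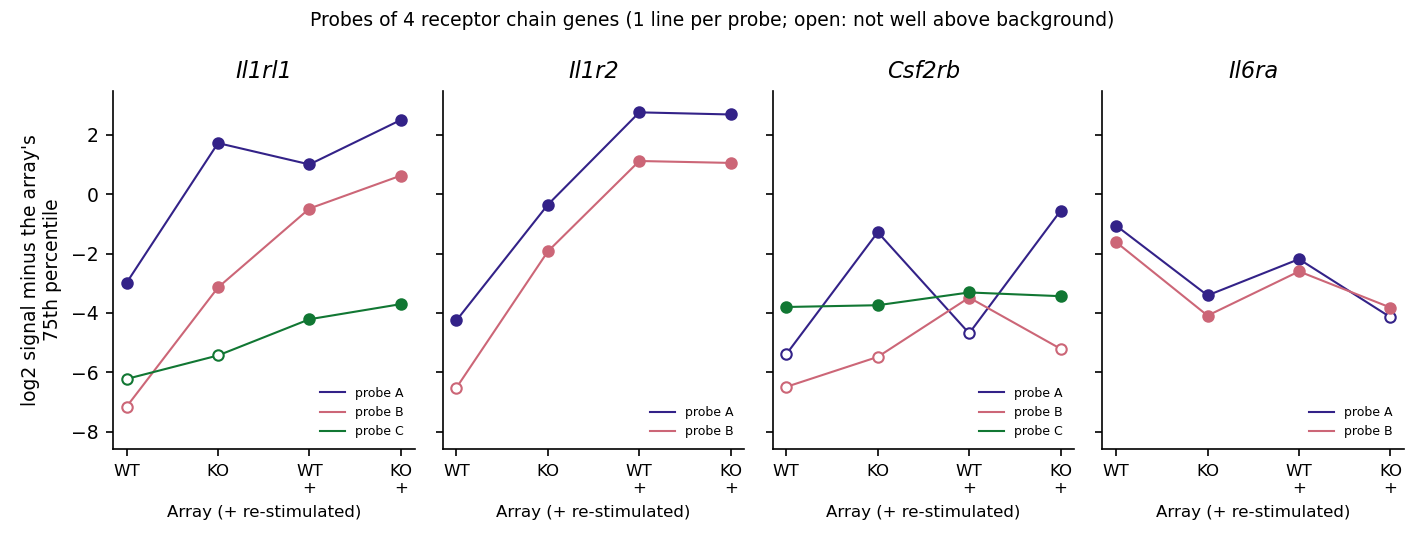
Log2 signal minus the 75th percentile of the array (y axis) on the 4 arrays (x axis) for each probe of Il1rl1, Il1r2, Csf2rb and Il6ra, with probe A the one read for the gene, lines joining the readings of 1 probe and open points not well above background. Both probes of Il1r2 run in parallel, and both of Il6ra are lower on the KO arrays than on the WT arrays of the same state. Probe B of Il1rl1 climbs on re-stimulation in KO where probe A changes by 0.78. Probe C of Csf2rb is near level between genotypes (0.06 and -0.13), where probe A is not. On re-stimulation probe C changes by 0.49 in WT and 0.30 in KO.

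The common β chain group comprises the receptors for IL-3, IL-5 and GM-CSF. Csf2rb encodes the β chain they share and Csf2rb2 a close mouse paralogue that serves IL-3. Csf2rb (NM_007780) had signals of 10.4 (WT) and 179 (KO) unstimulated and 12.1 (WT) and 240 (KO) re-stimulated. It was well above background on the arrays labelled KO and not on the WT arrays, at least 11.9-fold higher before re-stimulation and at least 14.7-fold after it. Csf2rb2 (NM_007781) had signals of 4.25 (WT) and 127 (KO) unstimulated and 10.3 (WT) and 250 (KO) re-stimulated, bounds of 8.46-fold and 15.3-fold. Within KO cells the re-stimulated array was 2.42-fold higher for Csf2rb2 (log2 of 1.27) and 1.65-fold for Csf2rb (0.72), and the former fell short of 2-fold with normexp. The genotype differences with normexp were 1.57 and 1.98 for Csf2rb and 1.12 and 1.97 for Csf2rb2 on the log2 scale.

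These readings are uncertain, since the genes are adjacent and near-identical copies, and whether their probes share signal was not tested. The other 2 probes of Csf2rb did not follow the first. One was level at 31.4 (WT), 32.5 (KO), 31.6 (WT) and 32.6 (KO) in the same order, with log2 differences of 0.06 and -0.13. The other was well above background on the re-stimulated WT array only, at 28.0. Averaged over its probes, Csf2rb differed by 1.73 before and 0.76 after re-stimulation.

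The ligand-binding chains of this group that had a value stayed within 2-fold, and Il5ra, the IL-5 binding chain, had none. Csf2ra, the GM-CSF binding chain, had log2 differences of 0.54 and 0.50, and Il3ra, the IL-3 binding chain, of 0.35 and 0.40. Mast cells and basophils are known to carry ST2 and the common β chain. Their marker Mcpt8, a basophil protease, had signals of 309 and 333 on the arrays labelled KO and was not well above background in WT, at least 20.5-fold and 20.3-fold higher. Of 4 eosinophil markers, 2 were well above background on each KO array against 0 and 1 in WT, with summed levels of 0.030 (WT) and 0.202 (KO) unstimulated and 0.121 and 0.630 re-stimulated, and Epx and Ear1 on none. Of 7 myeloid markers, 4 were well above background on each unstimulated array, but not the same 4. Cybb was among them in WT only (52.8 against 3.44 in KO) and Fcgr3 in KO only (36.3 against 9.38 in WT). On the re-stimulated arrays 2 (WT) and 3 (KO) passed this flag. Summed levels were 2.36 (WT) and 6.49 (KO) unstimulated and 2.84 and 7.33 re-stimulated, and Lyz2 and Itgam were well above background on none. The part of such cells in the values of Il1rl1, Csf2rb and Csf2rb2 was not tested.

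The common γ chain group was counted with that chain itself, the TSLP binding chain Crlf2 and the IL-13 receptor chains. In it 1 of 8 chains with a value passed 2-fold in unstimulated and 1 of 9 in re-stimulated cells. Over all genes 8.08% and 9.02% passed. The chain was Il7r (NM_008372) in both states. It encodes the IL-7 receptor α chain of naive and memory T cells, which also completes the TSLP receptor. Its signals were 494 (WT) and 4165 (KO) unstimulated and 616 (WT) and 2560 (KO) re-stimulated. The KO array was 8.46-fold higher before and 3.68-fold higher after re-stimulation, log2 differences of 3.08 and 1.88. The changes on re-stimulation were 0.80 in WT and -0.40 in KO. A dimmer second probe gave 1.51 between the re-stimulated arrays. Crlf2, the TSLP binding chain that pairs with it, had log2 differences of 0.72 and 0.59, higher in KO in both states but within 2-fold.

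The chains that bind IL-2 were near level. Il2rb and Il2rg, which form the signalling pair for IL-2 and IL-15, had log2 differences of -0.01 and 0.14 unstimulated and 0.46 and 0.12 re-stimulated. Il2ra (CD25), which raises the affinity for IL-2, had signals of 1446 (WT) and 1748 (KO) unstimulated and 1133 (WT) and 2123 (KO) re-stimulated, log2 differences of 0.28 and 0.73. Its second probe gave -0.21 and 0.16, so the sign of the first difference depended on the probe. Il21r, the IL-21 binding chain, differed by 0.01 and 0.06.

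Il15ra (NM_008358), which presents IL-15 to the β and γ chains, followed re-stimulation in both genotypes. Its signals were 243 (WT) and 324 (KO) unstimulated and 717 (WT) and 1045 (KO) re-stimulated, changes of 2.04 in WT and 1.99 in KO on the log2 scale. A second probe gave 2.16 and 2.13. The adjacent gene on chromosome 2, Il2ra, changed by 0.13 and 0.58.

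Il4ra (NM_001008700) encodes the IL-4 receptor α chain, also used by IL-13. Its signals were 32515 (WT) and 39695 (KO) unstimulated and 20187 (WT) and 14018 (KO) re-stimulated. The KO array was the higher before (0.29) and the lower after re-stimulation (-0.70). Re-stimulation went with -0.21 in WT and -1.20 in KO, the latter past 2-fold. Il13ra1 (NM_133990), the chain that joins it in the other IL-4 and IL-13 receptor, was well above background on the re-stimulated KO array only, at 28.2, at least 2.07-fold higher than in unstimulated KO cells. Its second probe was well above background on none, and the first fell short of 2-fold with each other scaling of the arrays.

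Promoter windows of Il7r and Il15ra (the one of its 2 windows that held a match) are shown because Il7r differed most between genotypes among these chains and Il15ra most on re-stimulation. Capitals mark TTCNNNGAA in Il7r and TGANTCA in Il15ra, and the build, strand convention and length are as above. The window of Il7r is chr15:9529877-9530126 on the minus strand. The window of Il15ra is chr2:11705462-11705711 on the plus strand.
Il7r: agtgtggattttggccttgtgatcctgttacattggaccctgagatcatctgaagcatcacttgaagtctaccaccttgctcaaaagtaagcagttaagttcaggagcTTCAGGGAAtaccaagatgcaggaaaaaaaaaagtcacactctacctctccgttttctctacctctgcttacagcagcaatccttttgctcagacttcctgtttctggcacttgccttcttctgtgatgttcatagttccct
Il15ra: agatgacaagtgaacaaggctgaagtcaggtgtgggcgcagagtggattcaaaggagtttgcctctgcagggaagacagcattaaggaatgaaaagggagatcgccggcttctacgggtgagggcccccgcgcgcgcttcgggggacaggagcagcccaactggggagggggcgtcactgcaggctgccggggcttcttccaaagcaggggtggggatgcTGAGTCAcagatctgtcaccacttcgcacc
The first base of the match lies 142 bases before the start site in Il7r and 30 bases before it in Il15ra. Over 43 windows of the 37 receptor chains with an entry, TGANTCA was in 6 (14.0%), against 6.75% of all 32851 windows of this length. The 6 genes were Il5ra, Il13ra2, Il15ra, Il17rb, Il20ra and Il22ra1, of which Il15ra was above background on all arrays, Il20ra on 1 and the others on none. TGACTCA or TGAGTCA was in 5 (11.6%), all of these genes but Il22ra1, against 4.46% of all windows, a count added after the values were seen. TTCNNNGAA was also in 6 windows (14.0%), against 7.02% of all, those of Il1r2, Il7r, Il12rb2, Il18r1, Csf2rb2 and Ifnar2. All 6 of these genes were among the 20 of the 46 chains that passed 2-fold in at least 1 comparison. The motif was searched after the values were seen, so this count supports nothing.

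In the gp130 and IL-12 receptor group, Il6ra was lower and Il12rb1 higher in KO. Il6ra (NM_010559), the IL-6 binding chain, had signals of 210 (WT) and 40.9 (KO) unstimulated and 68.8 (WT) and 20.0 (KO) re-stimulated, the last not well above background. It was 5.11-fold lower unstimulated (log2 of -2.35) and 3.89-fold lower re-stimulated. The latter was counted as a bound, but its KO reading lay above the lowest flagged signal of that array (17.2) and was kept as read. It is thus not a least difference. In WT cells Il6ra was 2.19-fold lower after re-stimulation. With normexp the genotype differences were -1.25 and -0.73, and the change in WT did not pass 2-fold either. The second probe gave log2 differences between genotypes of -2.48 and -1.22. Il6st (gp130), the signalling chain shared by IL-6, IL-11 and IL-27, had genotype differences of -0.51 and -0.29.

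Il12rb1 (NM_008353), the chain shared by the IL-12 and IL-23 receptors, had signals of 4666 (WT) and 19501 (KO) unstimulated and 10221 (WT) and 21342 (KO) re-stimulated. It was 4.20-fold higher in KO before re-stimulation and 1.85-fold after it. The change on re-stimulation was 1.61 in WT and 0.43 in KO on the log2 scale. Its partner for IL-12, Il12rb2 (NM_008354), had signals of 142 (WT) and 184 (KO) unstimulated and 266 (WT) and 178 (KO) re-stimulated. Its genotype difference was 0.39 before and -0.76 after re-stimulation, and the change on re-stimulation was 1.39 in WT and 0.25 in KO. The partner for IL-23, Il23r, was well above background on the unstimulated KO array only, at 23.4. Il27ra, the IL-27 binding chain, differed by -0.02 and -0.06, and Il11ra1, the IL-11 binding chain, by -0.53 and -0.40.

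The class II receptors for interferons and IL-10 family cytokines differed by 2-fold between genotypes only in re-stimulated cells. There 0 of 8 with a value were higher and 3 lower, against 5.17% and 3.85% of all genes, and 1 of the 8 values (Il20ra) was a bound. Of 7 with a value in unstimulated cells, 0 passed 2-fold, against 8.08% of all genes. Ifngr1 (NM_010511), the IFN-γ binding chain, had signals of 52070 (WT) and 40942 (KO) unstimulated and 21562 (WT) and 5336 (KO) re-stimulated. The re-stimulated array labelled KO was the lowest of the 4, 4.56-fold below WT (log2 of -2.19), whereas the unstimulated arrays differed by -0.34. Re-stimulation went with -0.79 in WT and -2.64 in KO.

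Ifngr2 (NM_008338), the signalling chain that pairs with it, had signals of 1074 (WT) and 960 (KO) unstimulated and 748 (WT) and 401 (KO) re-stimulated. Its log2 differences were -0.16 and -1.08, and a second probe gave -0.13 and -1.10. With normexp the second difference of the first probe fell short of 2-fold. Ifnar2 (NM_010509), the type I interferon binding chain, had signals of 2929 (WT) and 2111 (KO) unstimulated and 1028 (WT) and 570 (KO) re-stimulated, differences of -0.47 and -1.02. Its second probe gave -0.31 and -0.40, so the second difference was past 2-fold on 1 of its 2 probes. Ifnar1, the other type I interferon chain, differed by -0.05 and -0.50.

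Il10rb (NM_008349), the chain shared by the receptors for IL-10, IL-22 and IFN-λ, was lower after re-stimulation in both genotypes. Its signals were 5651 (WT) and 5010 (KO) unstimulated and 1949 (WT) and 1491 (KO) re-stimulated, changes of -1.05 and -1.45. Ifnar2 changed in the same direction, by -1.03 and -1.59. Il10ra, the IL-10 binding chain, differed by 0.33 between genotypes in both states and changed by 0.10 on re-stimulation in both genotypes. Il20rb, an IL-20 family chain, was higher in KO by 0.77 and 0.70, and Il20ra was well above background on the re-stimulated KO array only, at 26.9. Ifnar2, Il10rb, Ifnar1 and Ifngr2 are adjacent in this order on chromosome 16. All 4 had negative genotype differences in both states, from -0.47 to -0.05 unstimulated and from -1.08 to -0.50 re-stimulated.

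**Figure D4:**
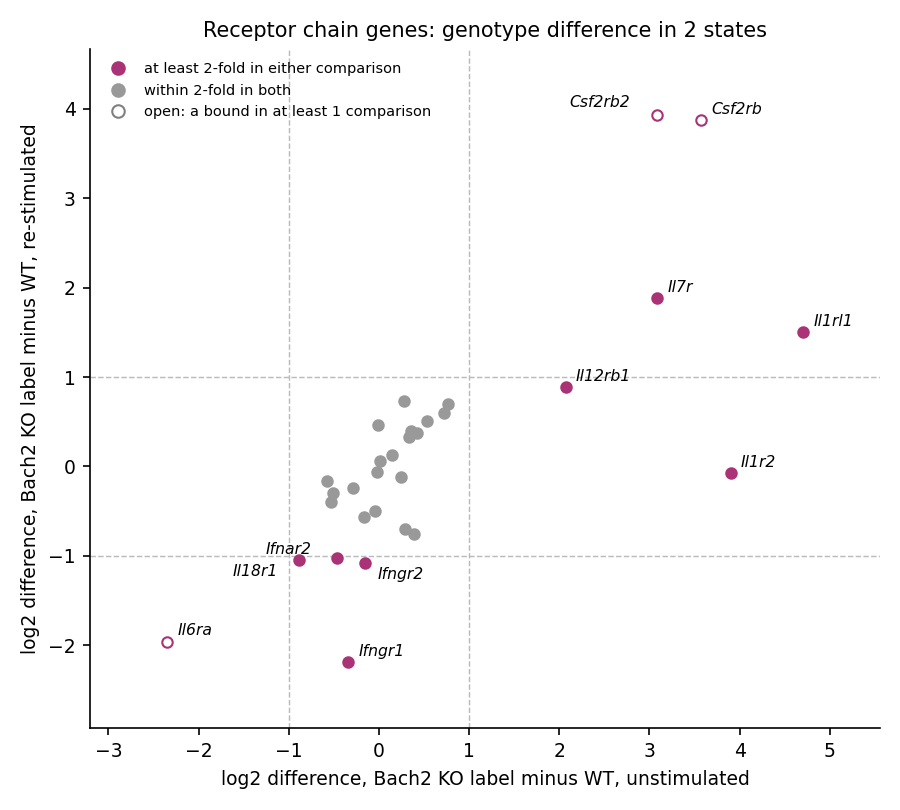
Log2 difference of the array labelled Bach2 KO minus WT in unstimulated (x axis) and re-stimulated cells (y axis) for the 31 receptor chain genes with a value in both, 1 point per gene, dashed lines at 2-fold and open points where a value is a bound. Csf2rb, Csf2rb2, Il1rl1 and Il7r lie past 2-fold on the positive side of both axes and Il6ra on the negative side of both. Il1r2 and Il12rb1 lie past it on the x axis, and Ifngr1, Ifngr2, Ifnar2 and Il18r1 on the lower part of the y axis.

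The IL-17 receptor chains and the myeloid growth factor receptors gave few values. Il17ra, the chain shared by the IL-17 receptors, differed by -0.58 and -0.17 between genotypes. Il17rc (NM_134159), its partner for IL-17A and IL-17F, had signals of 30.8 (WT) and 39.0 (KO) re-stimulated and 13.9 (WT) and 16.8 (KO) unstimulated, the latter not well above background. It was at least 2.84-fold higher after re-stimulation in WT. In KO it was 2.86-fold higher than an unstimulated reading that was kept as read. Its second probe gave 1.37 and 0.09 on the log2 scale, and with normexp neither change passed 2-fold. Il17re was well above background on the unstimulated KO array (20.8) and Csf1r on the unstimulated WT array (16.2), both close to the lowest such signals.

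Re-stimulation was compared within each genotype. In WT, 31 chains had a value, of which 8 were higher and 3 lower by at least 2-fold, where 26.7% of all genes passed, 13.2% higher and 13.5% lower. In KO, 38 had a value, of which 8 were higher and 4 lower, where 25.3% of all genes passed, 12.4% higher and 13.0% lower. With each array scaled to its median in place of its 75th percentile, the counts were 8 higher and 5 lower in WT and 6 and 7 in KO, and the median of all genes moved to -0.30 and -0.26 on the log2 scale. Il1r2, Il1rap, Il18rap, Il15ra and Il17rc were higher in both genotypes and Ifnar2 and Il10rb lower in both, which is 5 and 2 of 30 chains with both values, against 9.11% and 9.55% of all genes. Under median scaling, and with normexp, Il18rap fell short of 2-fold in KO. The second probe of Ifnar2 gave -0.93 in WT and -1.02 in KO, and with the mean over probes Ifnar2 fell short of 2-fold in WT.

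**Figure D5:**
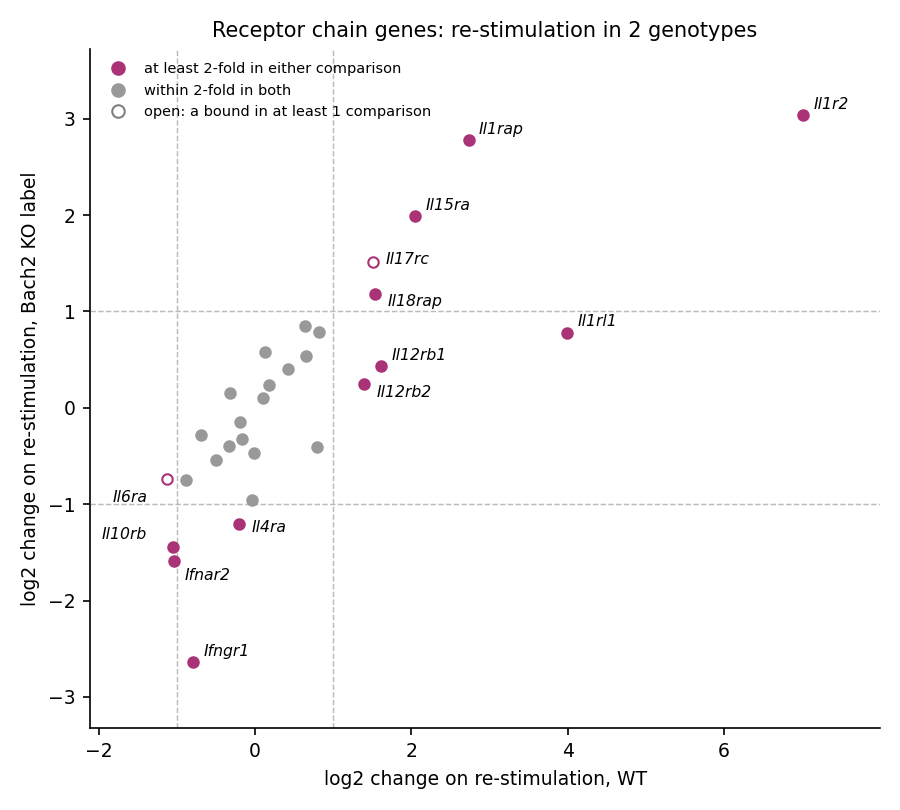
Log2 change on re-stimulation in WT (x axis) and in cells labelled Bach2 KO (y axis) for the 30 receptor chain genes with a value in both, 1 point per gene, dashed lines at 2-fold and open points where a value is a bound. Il1rap and Il15ra changed alike in both genotypes, whereas Il1r2, Il1rl1, Il12rb1 and Il12rb2 changed more in WT and Ifngr1 and Il4ra were lower after re-stimulation mainly in KO.

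The 28 chains well above background on all 4 arrays allowed the change on re-stimulation to be set against genotype. It was lower in KO than in WT by at least 2-fold for 6 of them, against 3.00% of all genes, and higher for 0, against 1.82%. The 6 were Il1r2 (-3.97), Il1rl1 (-3.21), Ifngr1 (-1.85), Il7r (-1.20), Il12rb1 (-1.18) and Il12rb2 (-1.14), on the log2 scale. The value of Il1rl1 depends on the probe read, whose change in KO was 0.78 where a second probe gave 3.77. That second probe was not well above background in unstimulated WT cells, so it gave no value for this difference. For Il1r2, Il1rl1, Il7r and Il12rb1 the unstimulated KO cells already stood past 2-fold above WT, and for Ifngr1 and Il12rb2 they did not. This difference is built from all 4 arrays, each used once, and has no test.

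Of the 20 chains that passed 2-fold in at least 1 comparison, 12 did so between genotypes, 16 on re-stimulation and 8 in both kinds. A further 19 were well above background on at least 1 array and never passed 2-fold. The share of all genes was not counted for such combinations, so these counts only list the chains. In single comparisons 8.08% to 26.7% of all genes passed. Between genotypes, 31 chains had a value in both states, of which Il1rl1, Il7r, Csf2rb and Csf2rb2 were higher in both (2.35% of all genes were) and Il6ra lower in both (1.04%). The error of a difference could be judged only from the spread between probes of 1 gene, whose median SD over 3962 to 4090 genes was 0.09 to 0.16 on the log2 scale for the 4 comparisons. Over the 8 to 11 receptor chains with such probes the median was 0.05 to 0.30. It was highest for re-stimulation in KO, at 0.30 against 0.14 over all genes. This spread leaves out mice, cultures and hybridizations.

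Genes that act downstream of these receptors were read from fixed lists. Among the JAK and STAT genes, Stat4, the IL-12 transducer, had signals of 2539 (WT) and 1972 (KO) unstimulated and 2262 (WT) and 929 (KO) re-stimulated. It was 2.75-fold lower in re-stimulated KO cells (log2 of -1.46). Stat2, which acts downstream of type I interferon, differed by 0.80 and -0.08 between genotypes. On re-stimulation Jak2 was higher by 3.49 in WT and 3.36 in KO, and Stat5a by 3.17 and 3.37.

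Of 8 SOCS genes, whose products feed back on these receptors, 0 differed by 2-fold between the unstimulated arrays, against 8.08% of all genes. Socs3, which binds gp130, had signals of 6139 (WT) and 7893 (KO) unstimulated and 2650 (WT) and 7593 (KO) re-stimulated, a difference of 1.34 in the re-stimulated cells. Socs2 differed by -0.92 and Socs7 by 0.88 there, both within 2-fold. Of the 10 adaptors and regulators of IL-1 and IL-17 receptors, 9 had a value unstimulated, 8 re-stimulated and 9 on re-stimulation in each genotype. None of these values passed 2-fold, though Traf3ip2 on re-stimulation in KO stood at the limit, with a log2 change of -0.999929. The largest genotype differences on that list were those of the inhibitory chain Sigirr (0.89), Myd88 (0.57) and Traf3ip2, which encodes Act1 (-0.53), all in re-stimulated cells.

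Ligands of the receptor chains were read in the same way. Of 29 with a probe, 6 were well above background on no array. Unstimulated, 12 had a value (5 of them bounds), of which 7 were higher and 0 lower in KO, against 5.26% and 2.82% of all genes. Re-stimulated, 23 had a value (3 of them bounds), of which 12 were higher and 1 lower, against 5.17% and 3.85% of all genes. The largest differences in re-stimulated cells were those of Il5 (6.86), Il6 (6.36) and Il10 (5.85). Of their binding chains, Il5ra was not well above background, Il6ra was lower in KO and Il10ra was higher by 0.33, within 2-fold. Il6 had signals of 3.35 (WT) and 23.0 (KO) unstimulated and 85.4 (WT) and 7938 (KO) re-stimulated. The unstimulated WT reading was not well above background, so that difference was a bound of 1.53-fold, short of 2-fold. In re-stimulated cells Il6 was higher and Il6ra lower in KO, where the probe read for Il6ra was not well above background.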

How the data were processed

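The scanner files that the authors deposited give the intensity of each spot after Agilent Feature Extraction 10.7.3.1 had subtracted background and removed spatial trends, with flags for spots well above background or uneven. In a second deposited table the unit is log2, each probe's intensity relative to the 75th percentile of its array. The members and all gene lists were chosen with earlier results of these data known. Uneven and outlier spots (107 to 120 per array) were dropped, spots of a probe averaged, and the 75th percentile subtracted on the log2 scale. Of 41173 probes, 27479 (66.7%) were named by transcript through a RefSeq table of GRCm38.p6, and a gene was read from its brightest probe. In a comparison a gene was used where it was well above background on at least 1 array, and a value below the lowest such value of its array was set to it, which gives a bound. On the 4 arrays 53.6% to 54.0% of probes passed this flag, the dimmest at signals of 14.5 to 17.2. Repeat spots had a median SD of 0.05 to 0.06 on the log2 scale. With 1 array per condition, differences of at least 2-fold were counted and none was tested.

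Members past 2-fold are given in full and the others by value or range, and the 3 genes with the largest genotype difference are named from each pathway list, except that 1 gene of the JAK and STAT list is not reported here. The motif TTCNNNGAA was added after the values were seen. The scripts were tested on simulated data. Alternatives were median scaling, quantile normalization, normexp with an offset of 50 before quantile normalization, the deposited log2 table, averaging of probes, a filter requiring both arrays, no filter or floor, and a 3-fold rule. Python 3.11.15, numpy 2.4.6, pandas 2.3.3, R 4.3.3 and limma 3.58.1 were used. The ChIP-seq data were not analysed here.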

Additional observations from a re-analysis of the deposited data

How the results depend on the processing

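No paired analysis was possible because each condition had 1 array and no result comes from a test. No alternative turned the direction of a chain past 2-fold, some list medians changed sign as given below, and 70 of 92 counts and medians over the receptor chains stayed within their limits (1.5 times for a count). The others follow, and apart from what the filters, thresholds and bounds fix by construction, the cause was not tested. Between the unstimulated arrays, 2 chains were lower with no filter and no floor, and the median was 0.15 with normexp, 0.14 with both arrays required and 0.15 with no filter. Between the re-stimulated arrays, 2 chains were higher with both arrays required, where the bounds of Il1r1, Csf2rb and Csf2rb2 drop out, and 8 with no filter. There 3 were lower with normexp, without Il6ra and Ifngr2, and 2 with a 3-fold rule, and the median was 0.00 with the mean over probes and -0.062 with both arrays required. On re-stimulation in WT, 5 chains were higher and 0 lower with a 3-fold rule and 5 were lower with median scaling, and the median was -0.17 with median scaling and 0.42 with no filter. In KO, 4 were higher with normexp, 5 with both arrays required and 4 with a 3-fold rule, 7 were lower with median scaling and 2 with a 3-fold rule, and the median was -0.073 with median scaling and 0.35 with no filter. With the mean over probes, Csf2rb and Ifnar2 no longer passed 2-fold between the re-stimulated arrays. Signal over background limits Il1r1, Csf2rb, Csf2rb2, Il13ra1 and Il17rc, whose dimmer readings were not well above background. It also limits Il6ra, whose reading on the re-stimulated KO array was not well above background.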
